A study of Mus musculus with 12 samples.

Results

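The genes described here encode the proteins of the perineuronal net and the large chondroitin sulfate proteoglycans of brain matrix. They were chosen by symbol as 10 of the 19312 genes in the table: the lecticans Ncan (neurocan), Bcan (brevican), Vcan (versican) and Acan (aggrecan), the link proteins Hapln1, Hapln2 and Hapln4, the tenascins Tnr and Tnc, and Ptprz1. All 10 had a row in the table and all 10 passed the filter on low values. RNA was sequenced from the brains of 12 male C57BL/6N mice at postnatal day 25 (P25), with 3 mice in each of 4 groups and 1 library per unpooled brain. WT-Veh and WT-Mem mice were wild-type, and KO-Veh and KO-Mem mice were homozygous for a deletion of exons 6 and 7 of Shank2, a scaffold gene of the excitatory postsynapse. Both Mem groups received 20 mg/kg of memantine, a blocker of the NMDA receptor, by mouth 2 times per day from P7 to P21, and both Veh groups received 0.1% saccharin in the same way. RNA was therefore taken after dosing had ended, and the labels do not tie the mice to litters. The tissue label is whole brain, whereas the study's methods describe the forebrain after removal of cerebellum and brain stem.

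Perineuronal nets are lattices of extracellular matrix that form around certain neurons late in postnatal development, most densely around parvalbumin interneurons, and their maturation is known for accompanying the closing of critical periods. Long chains of hyaluronan form the backbone. Lecticans bind hyaluronan with their N-terminal domain, link proteins fasten that bond, and tenascin-R joins the far ends of lecticans to each other. Part of the matrix is made by glia and part by neurons, so that a bulk sample mixes both sources. In bulk tissue, fewer cells of a type and less RNA per cell cannot be told apart.

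The values are normalized counts, that is, estimated read counts per gene divided by the authors' normalization factors. A single read corresponded to a value of 0.871 to 1.12 depending on the mouse, so a value stands for about as many reads, and the raw depth of the libraries is unknown. Shank2 was lower in every KO mouse (2706 to 3178) than in every WT mouse (7156 to 8548), with a log2 fold change of -1.45 ± 0.06 (SE; limma, adjusted p = 9.19e-10), in the direction of the genotype labels. Mouse 3 of KO-Veh stood apart: its 10 measured cerebellum and hindbrain markers summed to 3755 against 610 to 924 in the other 11 mice, and Gabra6, a granule cell gene of the cerebellum, read 254 there against at most 12.9 elsewhere. Mouse 1 of KO-Mem also stood apart, with the lowest value of the myelin genes Ermn (610 against 1175 to 2128 elsewhere) and Ugt8a (1701 against 2285 to 5138). In other genes mouse 3 of KO-Mem was the one that differed from mice 1 and 2, such as Hapln1 (792.6 against 477.2 and 515.0). Leaving that mouse out raised the number of genes called, as given below. Some results that lean on KO-Veh mouse 3 or KO-Mem mouse 1 are also given without them. The ratios between genes further on are given only with them. The limma p-values set a difference between groups against the spread between the mice of this cohort, with variances moderated over all genes.

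**Figure D1:**
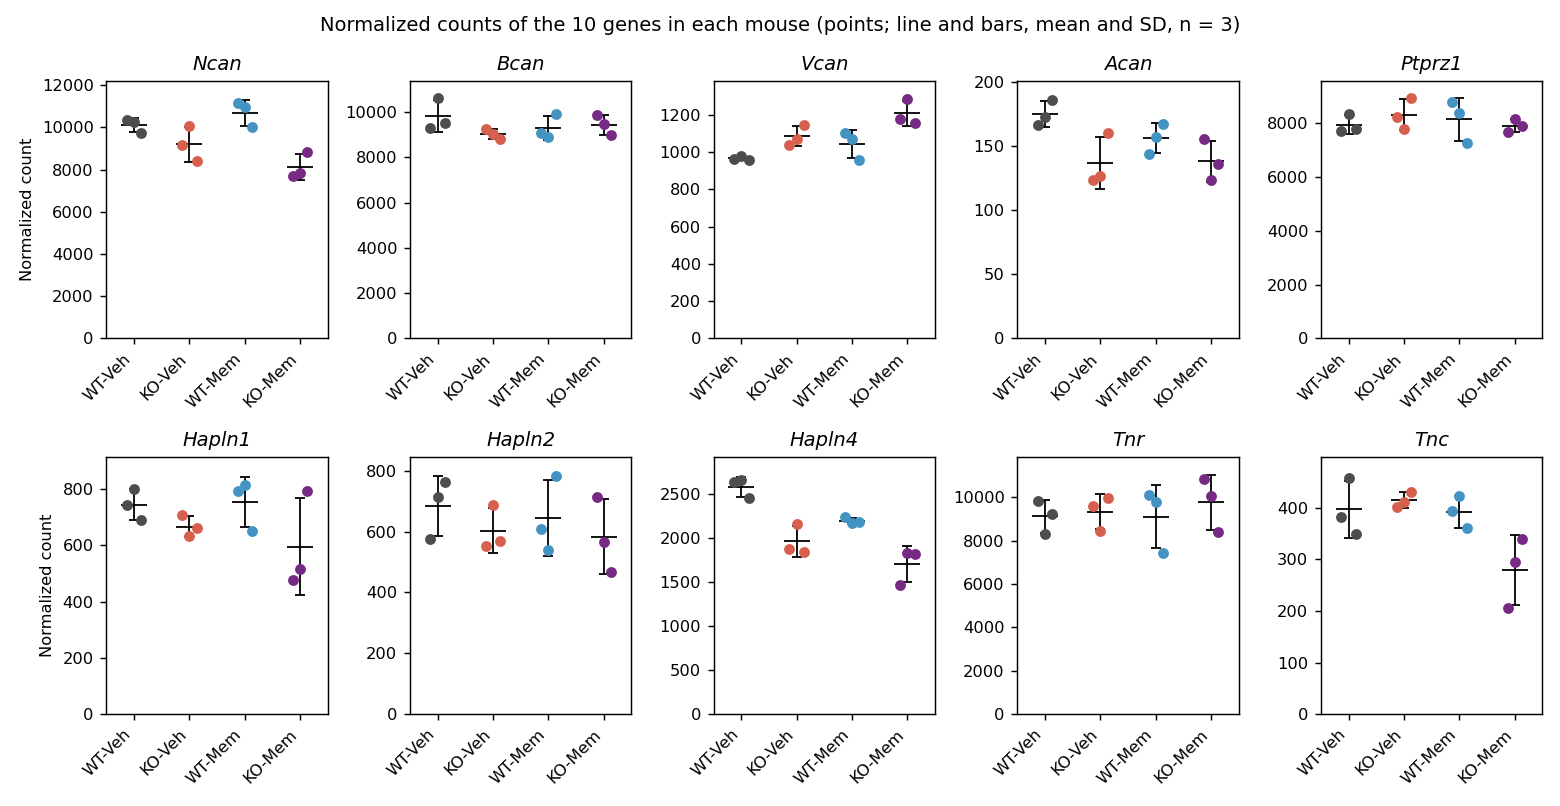
Normalized counts of the 10 genes (vertical axes, linear and starting at 0) in the 4 groups; each point is 1 mouse, and the line with bars is the mean and SD of 3 mice. The Hapln4 points step down from WT-Veh to WT-Mem, KO-Veh and KO-Mem without overlap, whereas the Ptprz1 and Tnr points of the groups lie over each other.

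All 10 genes were measured in every mouse, but at very different levels. Per kilobase of exon, Bcan had the highest level with 2993.5 ± 168 normalized counts (SD over 12 mice), followed by Ncan with 1325.7 ± 159. Ptprz1 (807 ± 48.8) and Tnr (765 ± 80.4) came next and did not differ beyond their spread, since Ptprz1 was higher in 9 of 12 mice. Hapln4 (580 ± 98.8) was the most abundant link protein transcript per kilobase, above Hapln2 (367 ± 58.3) in 11 of 12 mice and far above Hapln1 (121 ± 19.2). The ranges of Tnr and Hapln4, of Hapln4 and Hapln2, and of Hapln1 and Vcan (80.2 ± 7.73) overlapped. Tnc (47.7 ± 8.82) and Acan (20.6 ± 2.81) closed the order, and Acan, the lectican most tied to nets, thus had the lowest level of the 10. Of the summed per-kilobase level of the lecticans in WT-Veh mice, Bcan held 67.5%, Ncan 30.4%, Vcan 1.56% and Acan 0.515%. The exon length joined all exons of a gene's basic annotated transcripts (13406 bases for Vcan, 3141 for Bcan). Where the expressed isoforms skip some of these exons, the level per kilobase is understated, and isoforms were not measured here.

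The lecticans lie beside link protein genes in the mouse genome (GRCm38). Ncan (chr8:70093085-70120873, minus strand) and Hapln4 (chr8:70083457-70090862, plus strand) end 2222 bases apart, Bcan (chr3:87987531-88000230) and Hapln2 (chr3:88021750-88027583) lie 21519 bases apart, both on the minus strand, and Vcan (chr13:89655312-89742509, minus strand) and Hapln1 (chr13:89539796-89611652, plus strand) lie 43659 bases apart. Acan (chr7:79053483-79115099, plus strand) ends 2 bases from the end of Hapln3, a link protein gene outside the 10. No protein-coding gene lies between the partners of any of these pairs. Tnr is at chr1:159523769-159931729 (plus strand), Tnc at chr4:63959785-64047015 (minus strand) and Ptprz1 at chr6:22875502-23052916 (plus strand). The library kit did not mark strand, so reads of Vcan and Tnr cannot be told apart from those of the antisense genes annotated over them, Gm4117 and Gm38039, and the nearly touching 3' ends of Acan and Hapln3 share the same limit.

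Because Ncan was lower and Vcan higher in KO mice, with the values given further on, the 250 bases before their RefSeq transcription starts (GRCm38.p6, 5′ to 3′ on the gene's strand) are shown, with those of Bcan, the most abundant lectican transcript. Capitals mark a GC box (GGGCGG, or CCGCCC on the other strand) or a TATA box (TATAAA, or TTTATA on the other strand). The windows are chr8:70120845-70121094 for Ncan, chr3:88000357-88000606 for Bcan and chr13:89742513-89742762 for Vcan, all on the minus strand.
Ncan: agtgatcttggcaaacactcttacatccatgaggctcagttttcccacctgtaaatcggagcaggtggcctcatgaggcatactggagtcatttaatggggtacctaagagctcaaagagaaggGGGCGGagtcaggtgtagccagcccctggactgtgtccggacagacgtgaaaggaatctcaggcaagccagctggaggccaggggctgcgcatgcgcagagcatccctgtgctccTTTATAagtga
Bcan: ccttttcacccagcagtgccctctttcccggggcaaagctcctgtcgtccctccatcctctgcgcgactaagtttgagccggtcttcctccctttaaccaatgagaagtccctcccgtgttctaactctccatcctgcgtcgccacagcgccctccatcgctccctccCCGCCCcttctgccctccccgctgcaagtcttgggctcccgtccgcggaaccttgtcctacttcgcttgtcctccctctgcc
Vcan: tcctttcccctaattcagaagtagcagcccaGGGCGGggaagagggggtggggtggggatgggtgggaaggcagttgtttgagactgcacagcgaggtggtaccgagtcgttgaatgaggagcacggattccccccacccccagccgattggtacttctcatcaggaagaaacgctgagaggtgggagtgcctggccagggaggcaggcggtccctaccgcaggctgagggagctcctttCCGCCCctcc
The Ncan window held 1 GC box, 1 TATA box on the other strand close to its RefSeq start site and 6 CpG dinucleotides. In the annotation used for the positions above, Ncan begins at 70120873, inside this window. That TATA box therefore lies within the annotated gene. The Bcan window held 1 GC box, no TATA box and 16 CpG, and the Vcan window held 2 GC boxes, no TATA box and 10 CpG. Over 32851 windows of the same length, 32.7% held a GC box, 12.4% held a TATA box and the median was 6 CpG. Of the other genes with a window, Acan (2 GC boxes, 26 CpG) and Ptprz1 (2 GC boxes, 22 CpG) were rich in CpG, while Tnr, Hapln1 and Hapln2 held neither box and 2 CpG each, and both windows of Tnc held 1 box of each kind. In all, 9 of the 10 genes had a window and Hapln4 had none. These matches are a description of letters only.

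The first question was how the KO brain differed from the WT brain over both treatments, from 6 mice against 6 with treatment as a term. Hapln4 and Ncan, the neighbours on chromosome 8, fell by 23.5% and by 17.0% in KO mice, and Vcan rose 1.14-fold. These 3 of 10 genes were called at an adjusted p under 0.05 (limma with Benjamini-Hochberg adjustment over all genes tested), where 10.8% of all 17655 genes were called. By direction, 2 of the 10 were lower against 5.91% of all genes, and 1 was higher against 4.89%. At an unadjusted p under 0.05 stood 5 of 10 against 29.5% of all genes. The median log2 fold change of the 10 was -0.19, beside 0.0035 over all genes. Without mouse 3 of KO-Veh and mouse 1 of KO-Mem, a setting chosen after seeing the data, Hapln4 alone was called (-0.31 ± 0.05, adjusted p = 0.0252), and the call of all genes dropped from 1907 to 154.

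**Figure D2:**
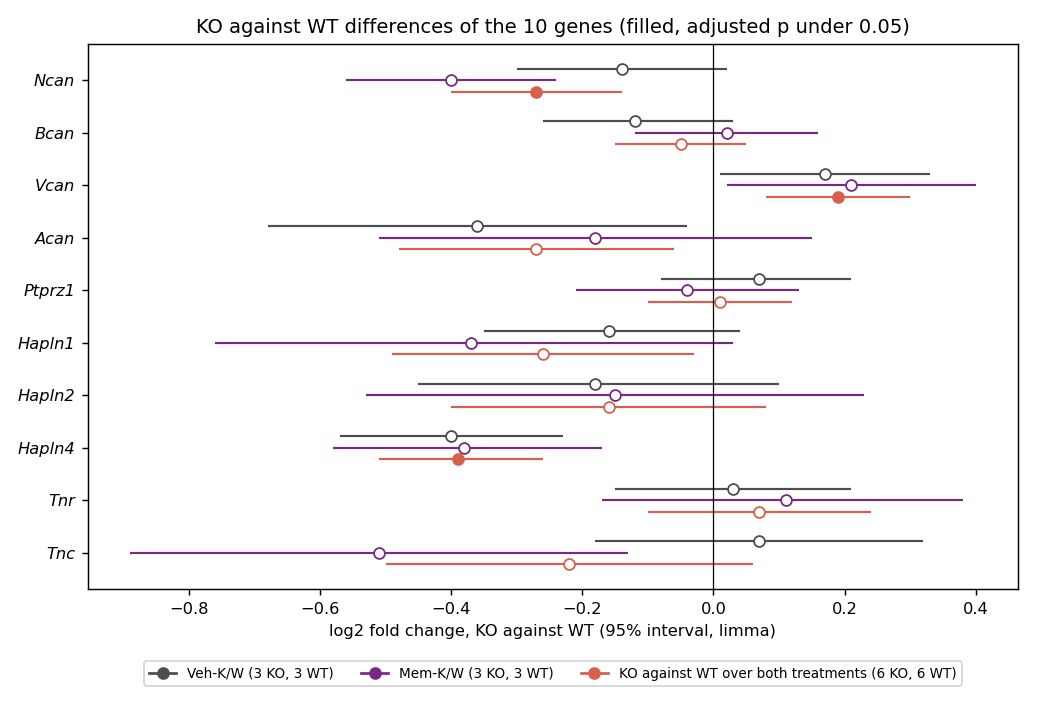
Log2 fold change of KO against WT (horizontal axis) with its 95% interval from limma for the 10 genes in vehicle-treated mice, in memantine-treated mice and over both treatments; filled points passed an adjusted p of 0.05. Hapln4 at -0.39, Ncan at -0.27 and Vcan at 0.19 are the filled points over both treatments, and no interval of Hapln4 reaches 0.

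Hapln4, a link protein that holds brevican in the nets of certain neurons, set the groups apart most cleanly. Its normalized counts were 2634, 2666 and 2452 (WT-Veh), 2237, 2178 and 2190 (WT-Mem), 1883, 2164 and 1848 (KO-Veh) and 1465, 1833 and 1820 (KO-Mem). Every mouse of a group lay below every mouse of the group named before it, so that all 4 groups were apart. The gaps between WT-Mem and KO-Veh (2178 against 2164) and between KO-Veh and KO-Mem (1848 against 1833) were narrow. Separation of all 4 groups, in any order, held for 15 of 17655 genes (0.0850%), and it was looked for after the values had been seen. The log2 fold change of KO against WT was -0.39 ± 0.06 (SE, 95% interval -0.51 to -0.26, adjusted p = 0.00494) over both treatments. It was the 1 gene of the 10 whose 6 KO mice lay wholly apart from the 6 WT mice, beside 4.06% of all genes. With any single mouse left out its adjusted p stayed between 0.00208 and 0.0176.

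Hapln4 stood apart by about as much under each treatment. In Veh-K/W, the comparison of KO-Veh with WT-Veh, the means were 1965 ± 174 and 2584 ± 116 (SD, n = 3 each; log2 fold change -0.40 ± 0.08, adjusted p = 0.134, limma). In Mem-K/W, of KO-Mem with WT-Mem, they were 1706 ± 209 and 2202 ± 31.3 (-0.38 ± 0.09, adjusted p = 0.0957, limma). Neither pair passed over all genes on its own 6 mice. The genotype by memantine interaction for Hapln4 was 0.02, with a 95% interval of -0.24 to 0.29.

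Ncan, a chondroitin sulfate proteoglycan abundant in the developing and juvenile brain, read 10351, 10263 and 9741 (WT-Veh), 11155, 10946 and 10003 (WT-Mem), 9150, 10058 and 8403 (KO-Veh) and 7693, 7850 and 8847 (KO-Mem). The KO-Mem mice lay below all WT mice, while KO-Veh mouse 2 lay within the WT-Veh range. Over both treatments the log2 fold change was -0.27 ± 0.06 (95% interval -0.40 to -0.14, adjusted p = 0.0166, limma), and with any single mouse left out the adjusted p was 0.00613 to 0.046. With KO-Veh mouse 3 and KO-Mem mouse 1 both left out it was -0.22 with an adjusted p of 0.111. In Mem-K/W the difference was -0.40 ± 0.07 (adjusted p = 0.0884), and in Veh-K/W it was -0.14 ± 0.07 (adjusted p = 0.406). The difference between these 2 effects, the interaction, was -0.26 ± 0.11 (adjusted p = 0.947 from limma on all 12 mice), so it did not pass.

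Vcan encodes versican, whose large isoforms are matrix proteoglycans of oligodendrocyte lineage cells and of early brain. Its counts were 963.2, 979.4 and 956.7 (WT-Veh), 1100, 1071 and 956.1 (WT-Mem), 1040, 1071 and 1146 (KO-Veh) and 1176, 1286 and 1158 (KO-Mem). The KO groups lay above the WT group of the same treatment without overlap, although WT-Mem and KO-Veh overlapped. The log2 fold change over both treatments was 0.19 ± 0.05 (adjusted p = 0.0321, limma). This call rested on several single mice, since the adjusted p rose to 0.0514 to 0.0803 without any 1 of KO-Mem 1, KO-Mem 2, KO-Veh 3, WT-Mem 2, WT-Mem 3 or WT-Veh 2. The difference was 0.17 ± 0.07 in Veh-K/W (adjusted p = 0.328) and 0.21 ± 0.09 in Mem-K/W (adjusted p = 0.200).

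Acan, the lectican that is a defining component of perineuronal nets, read 166.4, 172.8 and 186.1 (WT-Veh), 144.0, 157.5 and 167.1 (WT-Mem), 124.0, 126.5 and 160.3 (KO-Veh) and 155.5, 123.8 and 135.8 (KO-Mem). KO-Veh lay below WT-Veh without overlap, while the memantine groups overlapped. Over both treatments the log2 fold change of -0.27 ± 0.10 did not pass (adjusted p = 0.0871, 95% interval -0.48 to -0.06, limma). Its difference in Veh-K/W was -0.36 ± 0.14 (adjusted p = 0.300, limma).

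Bcan, which encodes the most abundant lectican of the mature brain, read 9300, 10632 and 9535 (WT-Veh), 9090, 8912 and 9920 (WT-Mem), 9252, 9050 and 8805 (KO-Veh) and 9867, 9482 and 8986 (KO-Mem). KO-Veh lay just below WT-Veh, and all other groups overlapped. The log2 fold change over both treatments was -0.05 ± 0.05 (adjusted p = 0.523, limma) with a 95% interval of -0.15 to 0.05.

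Ptprz1 encodes a receptor phosphatase whose secreted form, phosphacan, is a chondroitin sulfate proteoglycan that binds tenascins. It read 7696, 8334 and 7775 (WT-Veh), 8787, 8370 and 7243 (WT-Mem), 8238, 7775 and 8916 (KO-Veh) and 7676, 8149 and 7873 (KO-Mem). The 4 groups overlapped throughout. Its log2 fold change over both treatments was 0.01 ± 0.05 (interval -0.10 to 0.12, adjusted p = 0.889, limma).

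Of the other link proteins, Hapln1, a link protein of nets around cortical neurons, read 741.5, 799.1 and 690.1 (WT-Veh), 793.4, 814.1 and 650.5 (WT-Mem), 706.6, 632.6 and 660.0 (KO-Veh) and 477.2, 515.0 and 792.6 (KO-Mem). Mouse 3 of KO-Mem stood with the WT mice, and the other KO-Mem mice were the lowest of all 12. The log2 fold change over both treatments was -0.26 ± 0.11 (adjusted p = 0.122, limma), and it became -0.35 with an adjusted p of 0.0216 without KO-Mem mouse 3. Hapln2, a link protein found at nodes of Ranvier on myelinated axons, read 575.2, 712.8 and 763.1 (WT-Veh), 609.1, 540.5 and 781.8 (WT-Mem), 552.3, 686.7 and 570.0 (KO-Veh) and 715.1, 566.2 and 468.4 (KO-Mem). All 4 groups of Hapln2 overlapped, and its log2 fold change over both treatments was -0.16 ± 0.11 (adjusted p = 0.354, limma).

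Tnr encodes tenascin-R, the cross-linker of the net, and read 9816, 8326 and 9220 (WT-Veh), 10087, 9777 and 7437 (WT-Mem), 9597, 8452 and 9973 (KO-Veh) and 10845, 10062 and 8384 (KO-Mem). The groups overlapped, with a log2 fold change over both treatments of 0.07 ± 0.08 (interval -0.10 to 0.24, adjusted p = 0.591, limma). Tnc encodes tenascin-C, a matrix glycoprotein of immature astrocytes and stem cell niches, and read 382.9, 458.4 and 349.6 (WT-Veh), 393.1, 422.9 and 360.3 (WT-Mem), 401.1, 412.3 and 431.8 (KO-Veh) and 206.4, 294.9 and 339.6 (KO-Mem). The 3 KO-Mem mice were the lowest of all 12, and the other groups overlapped. Over both treatments the Tnc difference was -0.22 ± 0.13 (adjusted p = 0.277, limma).

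Each pair of groups was also tested on its own 6 mice. In Veh-K/W, which asks for the baseline difference, 0 of the 10 genes and 0.0283% of all genes were called. At an unadjusted p under 0.05 stood 3 of 10 (Hapln4, Acan and Vcan) against 14.4% of all genes. The groups did not overlap for 4 of 10 against 20.4% of all genes. In Mem-K/W 0 of 10 and 0.0680% of all genes were called, with 4 of 10 (Ncan, Hapln4, Vcan and Tnc) at an unadjusted p under 0.05 against 21.0%, and 4 of 10 without overlap against 26.2%. Tnc was -0.51 ± 0.17 there (adjusted p = 0.149, limma), against 0.07 ± 0.11 in Veh-K/W. Without KO-Mem mouse 3, 4 of the 10 were called in Mem-K/W, namely Ncan (-0.46, adjusted p = 0.00518), Hapln4 (-0.43, adjusted p = 0.0275), Hapln1 (-0.59, adjusted p = 0.0171) and Tnc (-0.66, adjusted p = 0.0331), all lower. In the same setting 1911 of 17633 genes were called, against 12 of 17646 with all 6 mice. Without KO-Veh mouse 2, Hapln4 was called in Veh-K/W (-0.47, adjusted p = 0.0468, limma).

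KO-Mem mice were also compared with WT-Veh mice, which asks how close treated KO brains come to the untreated WT state. In this comparison, KO-M/WT-V, 2 of 10 genes were called, both lower, against 3.37% of all genes. Hapln4 was -0.61 ± 0.10 (adjusted p = 0.0243, limma), so that its level fell by 34.3%, and Ncan was -0.32 ± 0.07 (adjusted p = 0.0432), where the level fell by 19.8%. Vcan was 0.32 ± 0.08 (adjusted p = 0.0556), Tnc -0.52 ± 0.18 (adjusted p = 0.112) and Acan -0.34 ± 0.15 (adjusted p = 0.173). These 5 of 10 had an unadjusted p under 0.05, against 25.9% of all genes. No member was called without any 1 of KO-Mem mice 1 and 2 or WT-Veh mice 1, 2 and 3, whereas 5 were called without KO-Mem mouse 3, when the calls among all genes went from 595 to 2490. In WT-M/KO-V, of WT-Mem with KO-Veh, 0 of 10 and 0.0227% of all genes were called, and 2 of 10 against 8.94% had an unadjusted p under 0.05, Ncan at 0.22 ± 0.07 and Hapln4 at 0.17 ± 0.07, both higher in WT-Mem. These comparisons share their groups with those above and are no separate evidence.

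The effect of memantine itself was asked within each genotype. In WT-M/V, of WT-Mem with WT-Veh, 0 of 10 genes were called, against 0.0114% of all genes, and 1 of 10 against 3.97% had an unadjusted p under 0.05. That gene was Hapln4, with means of 2202 ± 31.3 and 2584 ± 116 (log2 fold change -0.23 ± 0.07, adjusted p = 0.978, limma). It was also the 1 gene of 10 whose WT groups did not overlap, against 9.34% of all genes. In KO-M/V, of KO-Mem with KO-Veh, 0 of 10 and 0% of all genes were called, and 2 of 10 against 8.88% had an unadjusted p under 0.05. These were Tnc, with means of 280 ± 67.8 and 415 ± 15.5 (-0.59 ± 0.17, adjusted p = 0.554, limma), and Ncan (-0.18 ± 0.08, adjusted p = 0.557, limma). In KO-M/V the groups did not overlap for 3 of 10 genes, Tnc, Vcan and Hapln4, against 13.9% of all genes. KO-Mem mouse 1 had the lowest Tnc count of all, and the Tnc difference was -0.39 without it.

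Over both genotypes, 6 memantine mice against 6 vehicle mice, 0 of 10 and 0% of all genes were called. Hapln4 was -0.22 ± 0.06 (adjusted p = 0.416), Tnc -0.30 ± 0.13 (adjusted p = 0.536) and Vcan 0.13 ± 0.05 (adjusted p = 0.527 in limma), so 3 of 10 against 8.60% of all genes had an unadjusted p under 0.05. For Hapln4 the memantine difference had the same sign in both genotypes. The interaction called 0 of 10 and 0% of all genes, and 2 of 10 against 4.76% had an unadjusted p under 0.05. Tnc was -0.58 ± 0.22 there (adjusted p = 0.947, limma), and Ncan is given above. The data therefore do not show that the genotype difference of any of the 10 genes differed between treatments.

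Because the lecticans occupy the same place in the net, their balance was also read within each mouse, as log2 ratios. A scaling factor shared by all genes of a library cancels in them, whereas a factor that differs between genes does not. These ratios were chosen after the values had been seen and are given as a description. By an exact two-sided permutation of mice within treatments, no p of the 10 ratios was under 0.05 after Benjamini-Hochberg adjustment over them. The smallest p that these 400 permutations can give is 0.005, and Ncan to Vcan stood at it (exact permutation, adjusted p = 0.05). Bcan to Vcan and Vcan to Acan also had an adjusted p of 0.05. A lone ratio at that floor cannot fall under 0.05 after adjustment, so the threshold cannot decide here. The log2 ratio of Ncan to Vcan was 3.42, 3.39 and 3.35 (WT-Veh), 3.34, 3.35 and 3.39 (WT-Mem), 3.14, 3.23 and 2.87 (KO-Veh) and 2.71, 2.61 and 2.93 (KO-Mem). The 6 WT mice thus stayed within a narrow band, and all 6 KO mice lay below it, by 0.46 on average. This gap restates the fold changes of Ncan (-0.27) and Vcan (0.19) given above. How many other gene pairs separate the genotypes as fully was not counted. That mean gap was -0.31 under vehicle and -0.61 under memantine. For Ncan to Bcan the gap was -0.02 under vehicle and -0.42 under memantine. Over both treatments the KO (-0.36 to 0.15) and WT mice (-0.05 to 0.30) overlapped, as they did under vehicle, while all KO-Mem mice lay below all WT-Mem mice. The ratio of Bcan to Vcan averaged 3.01 ± 0.10 in KO and 3.25 ± 0.16 in WT mice (SD, n = 6), and that of Vcan to Acan 3.05 ± 0.18 and 2.59 ± 0.21, both with overlap. Ncan to Acan averaged 5.97 in both genotypes over both treatments, but its gap was 0.22 under vehicle and -0.22 under memantine. Versican held 1.56% ± 0.0614 of the per-kilobase lectican level in WT-Veh, 1.71% ± 0.151 in WT-Mem, 1.91% ± 0.164 in KO-Veh and 2.12% ± 0.132 in KO-Mem mice (SD, n = 3).

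**Figure D3:**
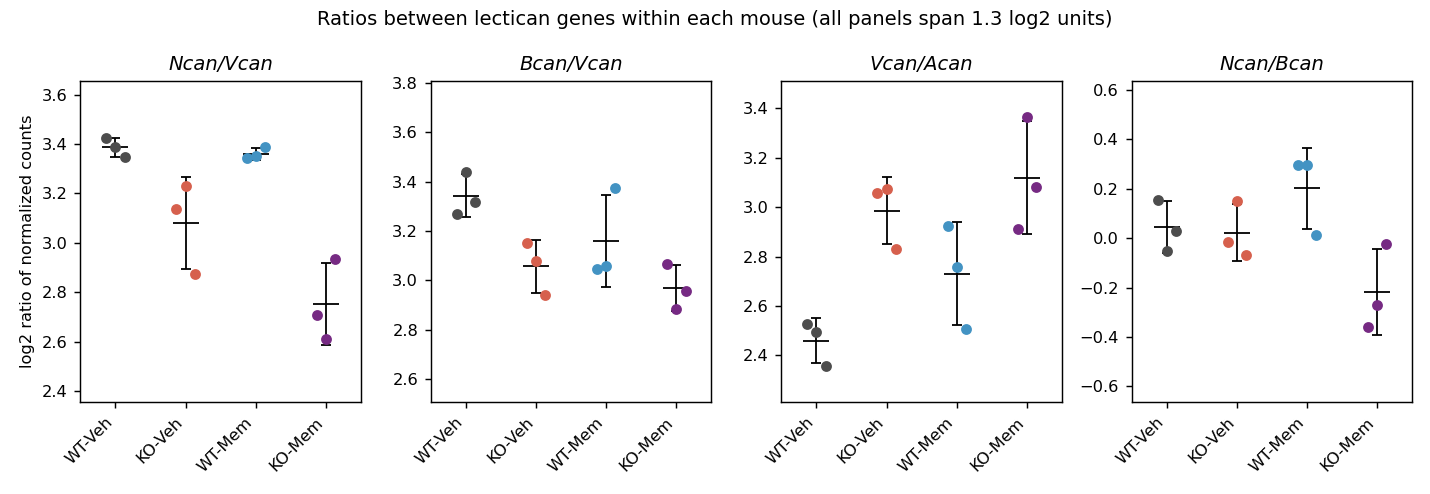
Log2 ratios of normalized counts between lectican genes within each mouse (vertical axes, each spanning the same number of log2 units), by group; points are mice, and the line with bars is the mean and SD of 3 mice. The Ncan/Vcan points of the WT groups lie between 3.34 and 3.42 and those of the KO groups between 2.61 and 3.23.

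Among link proteins and tenascins no ratio separated the genotypes. The gap in Hapln1 to Hapln4 was 0.12, in Hapln2 to Hapln4 0.22 and in Hapln1 to Hapln2 -0.10, all with overlap. For Tnr to Tnc the gap was -0.04 under vehicle and 0.62 under memantine, where Tnc was lowest. The KO-Mem ratios were 5.71, 5.09 and 4.62, and that of mouse 3 lay within the WT-Mem range of 4.36 to 4.68.

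Whether genomic neighbours varied together was read from each mouse's deviation from its group mean. Ncan and Hapln4 gave Pearson's r = 0.67 (exact permutation p = 0.103, adjusted over 4 pairs 0.183) and Spearman's rho = 0.68 (exact permutation p = 0.061, adjusted 0.122) over 12 mice, and r = 0.54 without the 2 mice farthest from the median. Bcan and Hapln2 gave r = 0.70 (exact permutation p = 0.0525, adjusted 0.183) and rho = 0.71 (exact permutation p = 0.0417, adjusted 0.122), with r = 0.70 without 2 mice. Acan and Hapln3 gave r = 0.58 (exact permutation p = 0.137) and rho = 0.43 (exact permutation p = 0.256). Vcan and Hapln1 gave r = 0.02 (exact permutation p = 0.964) and rho = 0.10 (exact permutation p = 0.855). No pair passed after adjustment, and the points share their libraries and scaling.

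The other genes of the matrix pathway were counted in the same fit of KO against WT over both treatments, where 10.8% of all genes were called. Of 28 other extracellular proteoglycan and matrix adhesion genes, 2 fell and 1 rose. Hspg2, which encodes the basement membrane proteoglycan perlecan, fell by 0.77 ± 0.11 on the log2 scale (adjusted p = 0.00396, limma) and Bgn (biglycan) fell by 0.52 ± 0.10, while Sparc, an astrocyte-secreted matrix protein, rose by 0.43 ± 0.09. Of 22 genes for the synthesis and sulfation of chondroitin sulfate chains, 1 fell, Chst3, a chondroitin 6-O-sulfotransferase (-0.42 ± 0.08, adjusted p = 0.0102). None of 12 genes of hyaluronan synthesis, turnover and receptors was called, the smallest p being those of Lyve1 (0.38 ± 0.21) and Has1 (0.20 ± 0.13).

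Of 21 matrix proteases and inhibitors, 5 fell and 1 rose. Adamts4, an aggrecanase that cuts lecticans, fell by 0.24 ± 0.06 (adjusted p = 0.0282, limma), as did Adamts8 (-0.62 ± 0.12), Mmp15 (-0.38 ± 0.10), Mmp17 (-0.32 ± 0.07) and Plau (-0.49 ± 0.15), and the inhibitor Timp2 rose by 0.20 ± 0.04. Of 15 receptors and ligands of chondroitin sulfate proteoglycans, 1 fell, Ptn (pleiotrophin, a ligand of the Ptprz1 receptor; -0.38 ± 0.08, adjusted p = 0.0118). Each of these lists had a median log2 fold change between -0.04 and 0.05.

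**Figure D4:**
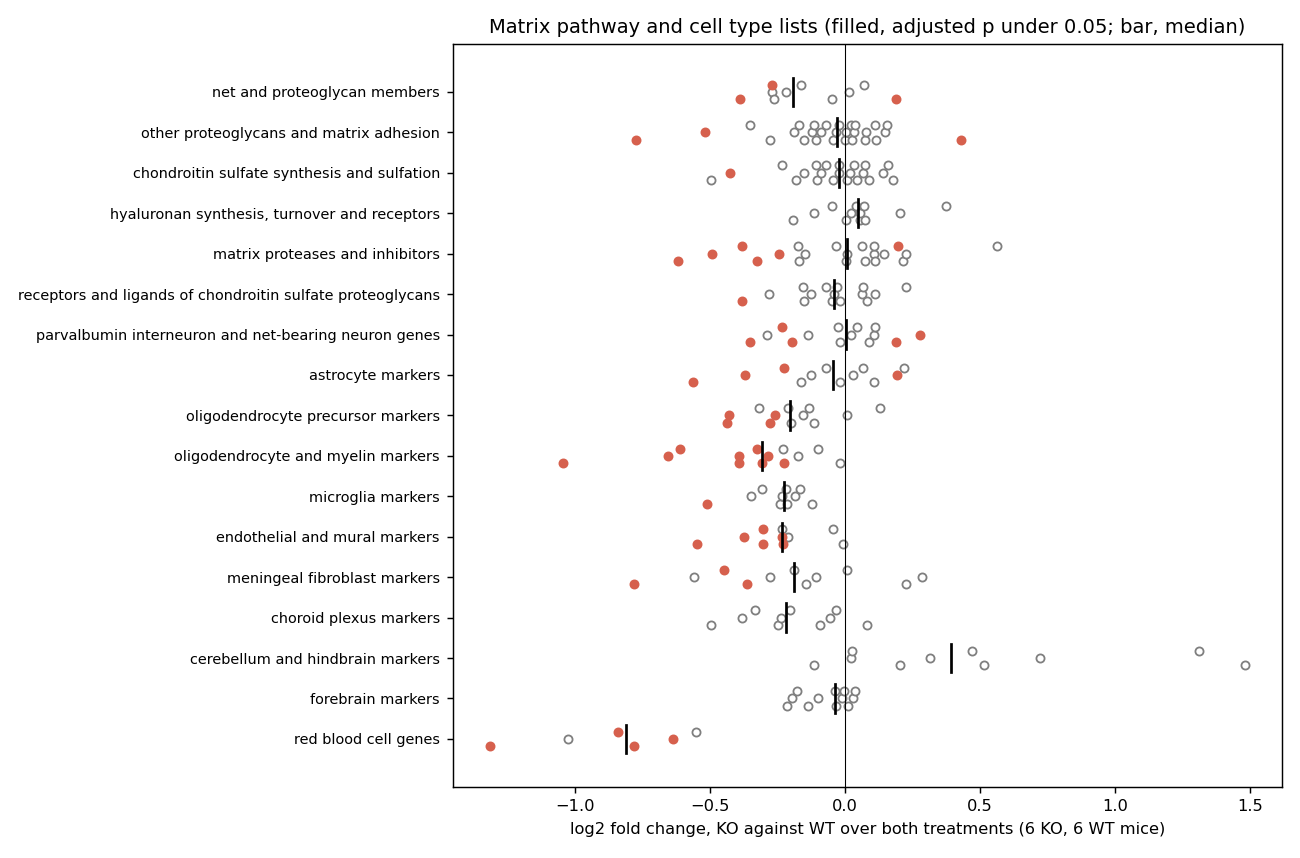
Log2 fold change of KO against WT over both treatments (horizontal axis; 6 KO and 6 WT mice) for each tested gene of the matrix and cell type lists; filled points passed an adjusted p of 0.05, and the bar is the list's median. The median of the net genes is -0.19 and that of the matrix lists lies between -0.04 and 0.05, while the oligodendrocyte list stands at -0.31.

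Some markers of the cells that make or bear the net were called in the same fit, where 10.8% of all genes were called. Their part in the results above was not tested. The median log2 fold change was 0.0 for the net-bearing neuron list and -0.04 for the astrocyte list. It was -0.20 for the oligodendrocyte precursor list and -0.31 for the oligodendrocyte and myelin list. Of 14 parvalbumin interneuron and net-bearing neuron genes, 3 fell, namely Pvalb (-0.35 ± 0.10), the fast-spiking potassium channel gene Kcnc1 (-0.23 ± 0.05) and Cplx1 (-0.20 ± 0.05), and 2 rose, Lhx6 (0.28 ± 0.08) and Gad2 (0.19 ± 0.05). Their summed level was 59753 to 62090 in WT-Veh, 59279 to 61342 in WT-Mem, 58909 to 60559 in KO-Veh and 56472 to 58522 in KO-Mem mice. Of 12 astrocyte markers 3 fell (Aqp4, S100b and Gja1) and 1 rose (Fgfr3), with sums of 133309 to 147340 in WT and 131374 to 143550 in KO mice. Of 12 oligodendrocyte precursor markers 4 fell (Bcas1, Olig1, Gpr17 and Neu4) and 8 were not called, Pdgfra and Cspg4 among them. At an unadjusted p under 0.05 (limma), 7 of the list were lower and 1 was higher. The sums of this list were 23621 to 26988 in the 6 WT and 18030 to 22519 in the 6 KO mice, without overlap. This was not particular to the precursor list. The endothelial and mural sums did not overlap either, with 12036 to 13407 in WT and 10663 to 11298 in KO mice. Of 13 oligodendrocyte and myelin markers 9 fell (among them Mag, Mog, Cnp and Ugt8a), from -0.22 ± 0.06 for Cldn11 to -1.04 ± 0.24 for Klk6, with sums of 324958 to 442968 in WT and 260947 to 336829 in KO mice. No marker of these lists was at 0 in any mouse.

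**Figure D5:**
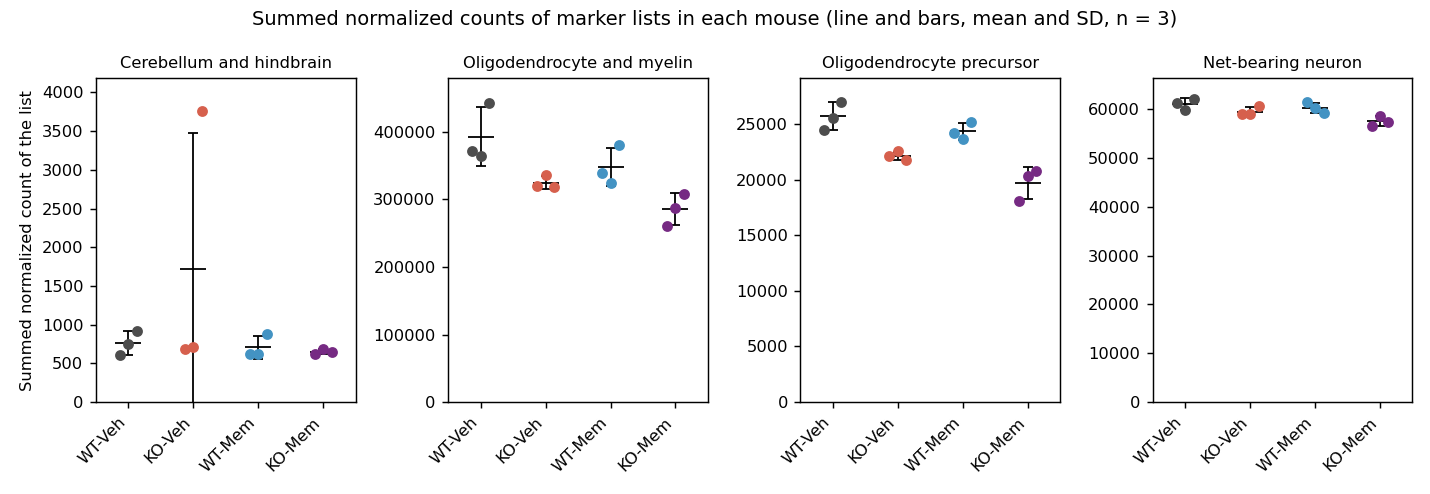
Summed normalized counts of 4 marker lists (vertical axes, linear and starting at 0) in the 4 groups; points are mice, and the line with bars is the mean and SD of 3 mice. The cerebellum and hindbrain sum of 3755 belongs to KO-Veh mouse 3, and the precursor sums of the KO mice lie below those of the WT mice.

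Other cell types were checked in the same way. Of 10 endothelial and mural markers 6 fell (Rgs5 at -0.55 ± 0.10, Acta2, Cdh5, Cldn5, Pecam1 and Flt1), and of 10 microglia markers 1 fell, P2ry12 (-0.51 ± 0.15). Of 11 meningeal fibroblast markers 3 fell (Igf2, Col3a1 and Col1a2), and of 6 red blood cell genes 4 fell (Hbb-bs, Hbb-bt, Hba-a1 and Hba-a2). None of 10 choroid plexus markers (smallest p for Kl at -0.24 ± 0.08 and Cldn2 at -0.49 ± 0.20) or 12 forebrain markers (for example Neurod6 at -0.20 ± 0.07) was called. None of the 10 cerebellum and hindbrain markers in the table was called either (smallest p for En2 at 0.72 ± 0.29 and Cbln3 at 1.31 ± 0.73), and 5 more of that list had no row. Hapln4 and Ncan in KO-Veh mouse 3, the mouse with cerebellar genes, were the lowest of their group. Without that mouse both remained called over both treatments, Hapln4 at -0.37 (adjusted p = 0.0176) and Ncan at -0.25 (adjusted p = 0.046, limma). Vcan was no longer called without it.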

How the data were processed

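Poly-A RNA libraries (TruSeq RNA Sample Prep Kit v2) of 12 mice were quantified by the authors with Salmon 1.1.0 on GRCm38 transcripts with GC bias correction and imported with tximport. The deposited signal values are the resulting gene counts divided by DESeq2 normalization factors, not log transformed and not whole; the whole reads could not be recovered. The labels name R 3.6.2 and DESeq2 1.26.0. The annotation release is not given in the sources used here. Of 19312 genes, 19295 matched GENCODE M21, which gave symbols, positions and exon lengths. Raw depth is unknown. The sums per mouse of 30373849 to 31199251 are scaled, and 61 to 88 genes per mouse were at 0.

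Groups came from the sample titles. Tests used limma 3.58.1 in R 4.3.3 (lmFit, eBayes with trend) on log2 values after a pseudocount of 1 was added. Genes had to reach a mean of 10 over the mice fitted. P-values were adjusted by Benjamini-Hochberg over all genes tested, with a threshold of 0.05 and no fold limit. A fold change on this scale understates that of low genes. Each pair of groups was fitted on its own 6 mice without covariates, and genotype, memantine and their interaction on all 12. A count test was planned only for whole counts, and the deposited values are not whole. Errors are SD for group values and moderated SE for log2 fold changes. Correlations used an exact two-sided permutation of mice within groups. The script was tested on simulated data. Alternatives were another pseudocount, other filters on low values, quantile normalization, no variance trend, all mice in a single fit, replicate blocks and leaving mice out.

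Named genes outside the 10 were all called genes of each list in the genotype fit, or the 2 with the smallest p where none was called; lists are described by counts, with examples, and some of these genes are not reported here. The 10 genes and all lists were chosen with earlier results of these data known. Promoter windows came from RefSeq.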

Additional observations from a re-analysis of the deposited data

How the results depend on the processing

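Fold changes of single genes were followed for only part of the genes and comparisons. Of these, 452 alternative values kept direction and call, 8 passed the threshold newly, 10 lost it and 5 turned sign. This tally does not hold every lost call of KO-M/WT-V given above. Counts of called genes among the 10 stayed within 1.5 times in 119 alternatives and moved in 14. Most comparisons called none of the 10 in the main fit. Where almost no gene of the table was called, a count that stayed at 0 says little about stability. For KO against WT over both treatments, 1 gene was called without a variance trend (Hapln4; Ncan and Vcan then had adjusted p = 0.0506 and 0.0524 in limma) and 1 with KO-Veh mouse 3 and KO-Mem mouse 1 both left out, when Ptprz1 read -0.002. Mem-K/W called 2 and KO-M/WT-V 4 with all 12 mice in 1 fit, and KO-M/WT-V called 0 without a variance trend. With 1 mouse left out at a time, the count ran from 0 to 1 in Veh-K/W, 0 to 4 in Mem-K/W and 0 to 5 in KO-M/WT-V. Tnc in Veh-K/W then ran from -0.01 to 0.18, Ptprz1 over both treatments from -0.02 to 0.05, and the correlation of Vcan and Hapln1 from -0.37 to 0.64. Bcan and Hapln2 reached r = 0.77 after quantile normalization. Among all genes, KO against WT called 1907, against 894 without a variance trend, 154 without both mice, and 694 to 2683 with 1 mouse left out. Mem-K/W called 12 genes, against 636 with all 12 mice in 1 fit and 2 to 1911 with 1 mouse left out. KO-M/WT-V called 595, against 7 without a variance trend, 2067 with all 12 mice, 999 with the replicate block and 1 to 2490 with 1 mouse left out. Veh-K/W called 5 and 2 to 53 with 1 mouse left out, and KO-M/V called 0, but 97 without KO-Mem mouse 3. The cause of these shifts was not tested.

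The replicate numbers did not pair the mice: same-numbered mice of 2 groups correlated at -0.193 to 0.083. A fit with the replicate block called 1 of the 10 genes in KO-M/WT-V.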
